A study of Mus musculus with 4 samples.

Results

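Sphingosine 1-phosphate (S1P) is a lipid signal that is made inside cells, exported and read by receptors on neighbouring cells. The genes described here are 10 of the 55357 genes in the deposited tables, and they were taken by their symbols as a list that covers synthesis, export, breakdown and reception. Sphk1 and Sphk2 encode the sphingosine kinases that make S1P, and Spns2 encodes the transporter through which endothelial cells release it. Sgpl1 encodes the lyase that breaks S1P down irreversibly. Sgpp1 and Sgpp2 encode intracellular phosphatases that return S1P to sphingosine, and Plpp1 and Plpp3 encode membrane phosphatases that remove phosphate from S1P and other lipids outside the cell. S1pr1 encodes a receptor that couples to Gi proteins and is known in endothelial cells for holding junctions together. S1pr3 encodes a receptor with broader coupling that is best known in the contractile cells of the vessel wall. The level of each gene was followed across retinal cell classes, so that the classes with synthesis and export genes and those with receptors could be compared, and between Diabetic and Control libraries within each class.

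The samples were mouse retinas from Diabetic and Control animals, with 2 single-cell RNA libraries in each group. Cells had been enriched with microbeads against CD31, a surface protein of endothelial cells, and sequenced with a droplet assay that tags the 3′ end of transcripts and counts molecules by unique molecular identifiers (UMIs). Strain, age, sex, the way diabetes was brought about, its duration, and whether a library pooled animals are not given in the sources used here. The p-values therefore measure the spread between these libraries, which may be partly technical. The 2 Diabetic libraries held 7991 and 3934 barcodes, against 6394 and 3091 in the Control libraries, with 58792636 and 41239892 UMIs in Diabetic libraries and 54901304 and 29792902 in Control libraries. After filters, 7393 and 3420 Diabetic cells and 5593 and 2390 Control cells were left. Any pair of libraries shared between 5 and 9 cell barcodes.

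Despite the enrichment, rods made up most of the cells that were assigned to a class. A cell was assigned when the UMIs of a class's markers passed a minimum per 10000 UMIs and those of every other class stayed under a limit. None of the 10 genes was used for this. Endothelial cells numbered 959 and 464 in Diabetic libraries and 424 and 193 in Control libraries, and all 10 endothelial markers were found in each library. Müller glia, the main support cells of the retina, numbered 196 and 123 in Diabetic libraries and 157 and 144 in Control libraries. Pericytes, which wrap capillaries, numbered 77 and 49 in Diabetic libraries and 59 and 38 in Control libraries. Levels are given as CPM, the counts scaled to a common library total, after adding up the UMIs of all cells that a library had in a class. Since the assay reads transcript ends, levels were compared between classes and groups for a given gene and not between genes.

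All 10 genes were found in the GENCODE vM21 annotation of GRCm38 under the gene identifiers of the files, and all are protein-coding. Sphk1 lies at chr11:116530925-116536674 on the plus strand and Sphk2 at chr7:45709467-45718002 on the minus strand. Spns2 lies at chr11:72451638-72489904 on the minus strand and Sgpl1 at chr10:61098642-61147703 on the minus strand. Sgpp1 lies at chr12:75714249-75735729 on the minus strand and Sgpp2 at chr1:78310345-78420289 on the plus strand. Plpp1 lies at chr13:112800792-112867894 and Plpp3 at chr4:105157347-105232764, both on the plus strand. S1pr1 lies at chr3:115710433-115715072 on the minus strand and S1pr3 at chr13:51408639-51422797 on the plus strand. Sphk2 overlaps Dbp and Rpl18, Spns2 overlaps Mybbp1a, Plpp1 overlaps Mtrex, and Sgpp2 overlaps Farsb, in each case on the other strand. Sphk1, Sgpp2 and S1pr3 also overlap non-coding genes on the other strand (Gm29292, Gm28410 and Gm32834). Whether the counting used strand is not given in the sources used here, so reads from such overlaps cannot be told apart from those of the named gene. On the same strand, Sgpp2 overlaps Gm37884, which is among the counted genes. Sgpl1 overlaps the microRNA gene Gm44308 on its own strand, which is not among them. Strand would not separate the reads of these 2 overlaps.

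Promoters are shown for the genes with a single RefSeq promoter entry that best marked different classes below: Sgpp2 for endothelial cells, S1pr3 for pericytes and Plpp3 for Müller glia. Each sequence is the 250 bases before the transcription start in RefSeq (GRCm38.p6), read 5′ to 3′ along the gene's strand, at chr1:78310096-78310345 for Sgpp2, chr13:51408368-51408617 for S1pr3 and chr4:105157097-105157346 for Plpp3, all on the plus strand. Capitals mark matches to AGGAAG, a core bound by ETS factors, or to CCACCC, a box bound by Krüppel-like factors, on either strand (CTTCCT and GGGTGG on the other).
Sgpp2: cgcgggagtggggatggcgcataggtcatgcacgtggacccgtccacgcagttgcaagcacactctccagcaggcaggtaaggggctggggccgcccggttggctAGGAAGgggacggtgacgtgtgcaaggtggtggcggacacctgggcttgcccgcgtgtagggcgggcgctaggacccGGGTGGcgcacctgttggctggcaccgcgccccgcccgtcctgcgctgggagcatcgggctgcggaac
S1pr3: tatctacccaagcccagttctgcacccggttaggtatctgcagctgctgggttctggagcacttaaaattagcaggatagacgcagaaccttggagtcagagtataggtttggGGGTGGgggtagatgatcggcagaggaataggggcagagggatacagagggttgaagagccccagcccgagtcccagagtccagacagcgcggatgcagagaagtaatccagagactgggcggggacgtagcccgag
Plpp3: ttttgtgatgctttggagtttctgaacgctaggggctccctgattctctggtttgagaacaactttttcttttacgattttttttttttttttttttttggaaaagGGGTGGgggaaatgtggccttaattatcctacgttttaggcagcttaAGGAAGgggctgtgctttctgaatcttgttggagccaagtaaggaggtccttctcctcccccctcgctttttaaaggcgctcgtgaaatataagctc
AGGAAG occurred in the Sgpp2 and Plpp3 windows and not in that of S1pr3, and it is found in 29.2% of 27025 mouse promoters of this length. CCACCC occurred in each of the 3 windows, in the GGGTGG orientation, and is found in 27.7% of those promoters. The Sgpp2 window was 70.8% G and C with 24 CpG sites, the S1pr3 window 56.4% with 9 and the Plpp3 window 42.4% with 6, beside a median of 52.0% and 6 over all promoters. These matches describe the letters of the windows and say nothing of whether a factor binds there.

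Sphk1 was highest in Müller glia, while Sphk2 was found at low levels in every class. Sphk1 had 26.1 and 9.22 CPM in Diabetic Müller glia and 28.1 and 26.6 CPM in Control Müller glia, from 55 UMIs in all. In endothelial cells it had between 0.371 and 1.33 CPM, from 8 UMIs, and no UMI was seen in pericytes, smooth muscle cells, microglia or bipolar cells. Diabetic 2 was the low library, and the other 3 lay between 26.1 and 28.1 CPM. A count of 3 per library would allow up to 25.6 CPM in the Diabetic 1 pericytes, so absence there was not shown. The level in Müller glia was higher than in endothelial cells by 4.43 ± 0.49 on the log2 scale (SE, edgeR quasi-likelihood test with the library as a block, Benjamini-Hochberg adjusted p = 4.33e-08). Sphk2 was spread across classes, with 10.4 and 11.9 CPM in Diabetic endothelial cells, 13.9 and 13.1 CPM in Control endothelial cells, and 8.50 to 9.85 CPM in rods.

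Spns2, the exporter, had 35.0 and 43.0 CPM in Diabetic endothelial cells and 26.6 and 32.9 CPM in Control endothelial cells. Microglia or macrophages were next, with 19.4 and 19.0 CPM in Diabetic and 29.4 and 23.6 CPM in Control libraries, although from 17 UMIs in all. In rods it stayed between 0.347 and 0.75 CPM, and endothelial cells were 70.8-fold higher than rods (SE 0.23 on the log2 scale, edgeR adjusted p = 1.12e-14). Endothelial cells were thus the class with the highest mean, but their range overlapped that of microglia, and the 2 classes were not told apart (endothelial cells over microglia 1.36-fold, SE 0.40 on the log2 scale, edgeR adjusted p = 0.402). Endothelial marker genes summed to 228 to 339 CPM in Diabetic microglia and 106 to 176 CPM in Control microglia, beside 16100 to 16370 CPM in Diabetic endothelial cells and 15140 to 16088 CPM in Control endothelial cells. Müller glia, the class with Sphk1, held 5 UMIs of Spns2 in 4 libraries.

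The breakdown genes were divided among classes. Sgpl1 was highest in microglia or macrophages, at 77.7 and 61.7 CPM in Diabetic and 110.3 and 58.9 CPM in Control libraries, above endothelial cells by 2.92 ± 0.33 (log2, SE, edgeR adjusted p = 6.68e-12). Sgpp1 lay between 52.5 and 54.6 CPM in the 4 libraries' rods and between 19.6 and 23.5 CPM in endothelial cells, the class with its lowest mean (log2 difference 1.13 ± 0.12, edgeR adjusted p = 9.91e-08). Its relative Sgpp2 ran the other way. Sgpp2 had 51.2 and 70.4 CPM in Diabetic endothelial cells and 90.1 and 107.1 CPM in Control endothelial cells, against 1.04 to 2.87 CPM in rods and 1.4 to 5.53 CPM in Müller glia. Bipolar cells came second for Sgpp2, at 11.5 to 55.8 CPM, and endothelial cells were 3.4-fold higher (SE 0.25 on the log2 scale, edgeR adjusted p = 2.77e-10).

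The surface phosphatases also parted. Plpp3 had 441 and 639.8 CPM in Diabetic Müller glia and 663 and 553 CPM in Control Müller glia. Pericytes had 239 and 238 CPM in Diabetic and 161 and 164 CPM in Control libraries, and endothelial cells 49.1 and 63.4 CPM in Diabetic and 70.1 and 49.8 CPM in Control libraries. Müller glia were above endothelial cells by 3.16 ± 0.13 (log2, SE, edgeR adjusted p = 1.86e-15), and pericytes by 1.61 ± 0.22 (adjusted p = 1.42e-09). The pericyte difference was 0.96 with a stricter gate and then missed the threshold (edgeR adjusted p = 0.119). Plpp1 was highest in endothelial cells, at 72.3 and 67.8 CPM in Diabetic and 45.3 and 54.5 CPM in Control libraries, and microglia overlapped them at 30.5 to 58.9 CPM. Endothelial cells and microglia were not told apart in Plpp1 (endothelial cells over microglia 1.35-fold, SE 0.32 on the log2 scale, edgeR adjusted p = 0.292). Endothelial cells were 5.63-fold higher in Plpp1 than rods (SE 0.13 on the log2 scale, edgeR adjusted p = 1.10e-12).

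**Figure D1:**
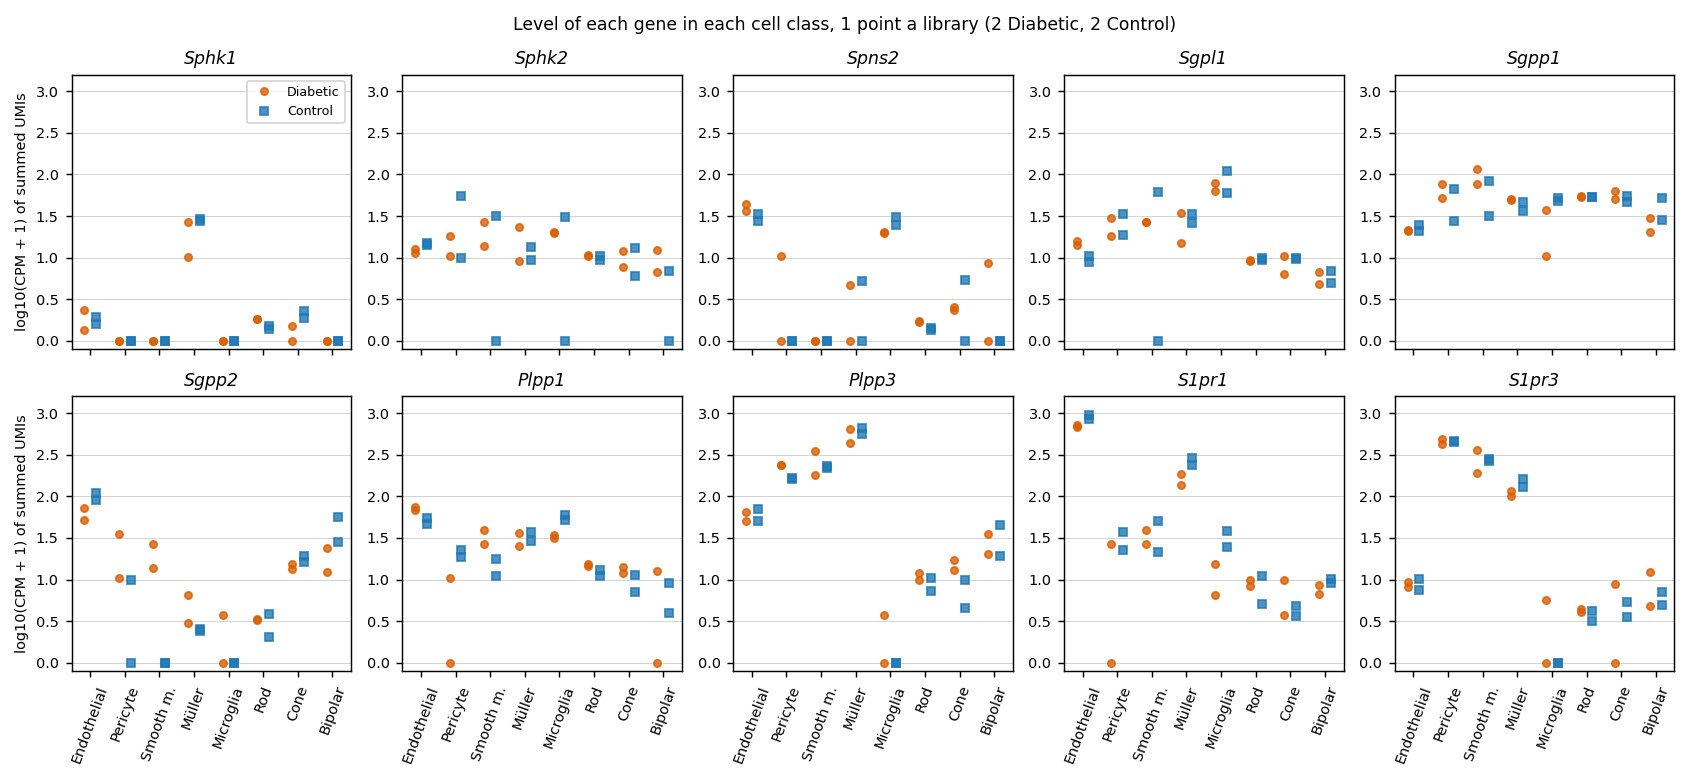
Level of each of the 10 genes, as log10(CPM + 1), in 8 cell classes; each point is a library, with Diabetic libraries as circles and Control libraries as squares. S1pr1, Sgpp2, Spns2 and Plpp1 have their highest mean in endothelial cells, S1pr3 in pericytes, Plpp3 and Sphk1 in Müller glia, and Sgpl1 in microglia or macrophages.

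The receptors had their highest levels in different classes, S1pr1 in endothelial cells and S1pr3 in pericytes, and Müller glia held both. S1pr1 had 687 and 715 CPM in Diabetic endothelial cells and 934 and 842 CPM in Control endothelial cells, and Müller glia came second with 136 and 184 CPM in Diabetic and 285 and 237 CPM in Control libraries. No other class exceeded 50.0 CPM in any library. Endothelial cells were 4.2-fold higher than Müller glia (SE 0.14 on the log2 scale, edgeR adjusted p = 1.02e-11). At least 1 UMI of S1pr1 was found in 78.5% and 85.3% of Diabetic and 83.5% and 81.9% of Control endothelial cells, against 5.47% to 10.1% of rods. The part of RNA from other cells in the rod share was not tested. Cells under 1000 UMIs were then left out, and the rest were thinned to 1000 UMIs. Among these, S1pr1 was found in 47.2% and 45.7% of Diabetic and 54.7% and 54.5% of Control endothelial cells. In rods the share was 0.400% to 1.11%.

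Endothelial RNA was measured in Müller glia beside S1pr1. Cldn5, an endothelial tight junction gene, had 28.0 to 70.2 CPM in Müller glia and 3305 to 4037 CPM in endothelial cells, and Pecam1 had 5.6 to 16.6 CPM in Müller glia and 694 to 764 CPM in endothelial cells. In pericytes Cldn5 was higher than in Müller glia, at 120 to 222 CPM, while S1pr1 stayed between 0 and 35.8 CPM. Most of the endothelial marker sum in Müller glia came from the VEGF receptor genes Flt1, at 729 to 902 CPM, and Kdr, at 521 to 798 CPM. The part of such RNA in the Müller glia level was not tested. These genes outside the list were chosen after their values were seen.

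S1pr3 had 487 and 419 CPM in Diabetic pericytes and 456 and 448 CPM in Control pericytes. Smooth muscle cells, of which a library held 11 to 30, had 192 and 358 CPM in Diabetic and 283 and 267 CPM in Control libraries. Müller glia had 100.3 and 116 CPM in Diabetic and 129 and 158 CPM in Control libraries. Endothelial cells had 6.57 to 9.07 CPM, and these 4 classes did not overlap. Pericytes were above endothelial cells by 5.64 ± 0.22 (log2, SE, edgeR adjusted p = 2.20e-41) and Müller glia by 3.80 ± 0.19 (adjusted p = 4.80e-14). Beside the low endothelial level, pericyte markers summed to 1194 to 1205 CPM in Diabetic and 1035 to 1182 CPM in Control endothelial cells, against 31650 to 31760 CPM in Diabetic and 33828 to 37333 CPM in Control pericytes. Whether that RNA makes up the endothelial S1pr3 was not tested.

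Against endothelial cells, 7 of 9 tested members differed in pericytes (29.3% of all tested genes did), 9 of 10 in Müller glia (62.1%), 4 of 8 in microglia or macrophages (40.8%), 9 of 9 in rods (75.1%), 9 of 9 in cones (74.8%) and 5 of 6 in bipolar cells (63.2%). Sgpp1 was higher in pericytes, Müller glia, rods and cones than in endothelial cells. It did not pass in microglia or bipolar cells (edgeR adjusted p = 0.0537 and 0.607).

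The genes whose levels over 28 class and library sums of 7 classes ran most like a member's were named as a description, among 8031 genes that averaged 20 CPM or more. Sums of a library share its depth. For S1pr1 they were Grb14, Maoa and Gnaq, with Pearson r between 0.848 and 0.868 on the log2(CPM + 1) scale. For S1pr3 they were Plac9a, Gpx8 and Rgma, with r between 0.955 and 0.970, and for Spns2 they were Gvin-ps7, Gatm and Slco2b1, with r between 0.876 and 0.901.

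Endothelial cells were split by markers into arterial, capillary and venous cells, and into inflamed venous cells with Lcn2, Ackr1 and related genes. Arterial cells numbered 115 and 45 in Diabetic and 61 and 24 in Control libraries, capillary cells 415 and 212 in Diabetic and 240 and 104 in Control libraries, and venous cells 149 and 78 in Diabetic and 74 and 41 in Control libraries. Inflamed venous cells numbered 82 and 41 in Diabetic libraries and 3 and 2 in Control libraries, too few in the Control group for a comparison.

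S1pr1 had 754 and 878 CPM in Diabetic and 992 and 1248 CPM in Control arterial cells, and 689.9 and 631 CPM in Diabetic and 938 and 688 CPM in Control capillary cells. Venous cells had 625 and 645 CPM in Diabetic and 814 and 841 CPM in Control libraries. Arterial cells were above capillary cells by 0.39 ± 0.11 (log2, SE, edgeR adjusted p = 0.0191) and above venous cells by 0.39 ± 0.11 (adjusted p = 0.0397). The first difference missed the threshold without Diabetic 1 (0.46, adjusted p = 0.0603), without Diabetic 2 (0.35, adjusted p = 0.273) or without Control 2 (0.25, adjusted p = 0.235), and the second missed it without any of the 4 libraries in turn (0.34 to 0.44).

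Plpp3 had 70.7 and 154 CPM in Diabetic and 97.9 and 53.0 CPM in Control arterial cells, and 32.7 to 47.2 CPM in venous cells. Arterial cells were above capillary cells by 0.96 ± 0.21 (log2, SE, edgeR adjusted p = 9.60e-04) and above venous cells by 1.38 ± 0.26 (adjusted p = 4.22e-04). Without Diabetic 2, which holds the highest arterial value, these fell to 0.59 (adjusted p = 0.293) and 0.98 (adjusted p = 0.069). In all, 2 of 6 tested members differed between arterial and capillary cells (4.08% of all tested genes), 0 of 6 between venous and capillary cells (2.48%, with 1 member at an unadjusted p under 0.05) and 2 of 5 between arterial and venous cells (4.63%). Spns2, Sgpp2 and Plpp1 passed in none of these 3 edgeR fits. How many of all genes had an unadjusted p under 0.05 in them was not counted.

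The comparison of Diabetic with Control endothelial cells asked whether the S1P genes of the vessel lining change in diabetes. Sgpp2 fell, and the mean levels were 60.8 ± 13.57 CPM in Diabetic and 98.6 ± 12.03 CPM in Control libraries (SD, n = 2 each). Both Diabetic values lay below both Control values. The log2 fold change was −0.70 ± 0.17 (SE, edgeR quasi-likelihood test, adjusted p = 0.0399). It was the only member called among 9 tested, where 4.15% of 11184 genes were called, 2.56% as higher and 1.59% as lower. Sphk1 had too few UMIs to be tested.

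The Sgpp2 call was lost under several other settings. With the stricter gate the fold change was −0.56 (edgeR adjusted p = 0.208), and with Leiden clusters it was −0.60 (adjusted p = 0.0645). Without Diabetic 1 the fold change was −0.45. DESeq2, run on all the libraries, did not call Sgpp2 (adjusted p = 0.196). Inflamed venous cells, which took 8.55% and 8.84% of Diabetic and 0.707% and 1.04% of Control endothelial cells, held 20.2 and 34.4 CPM of Sgpp2 in Diabetic libraries. With these cells left out, a choice made after seeing the data, the fold change was −0.56 (edgeR adjusted p = 0.096), and with equal numbers of arterial, capillary and venous cells from each library it was −0.36 (adjusted p = 0.631).

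S1pr1 averaged 701 ± 19.6 CPM in Diabetic and 888 ± 65.7 CPM in Control endothelial cells (SD, n = 2 each). The Diabetic values lay below the Control values, and the log2 fold change was −0.35 ± 0.10 (SE), which missed the threshold (edgeR adjusted p = 0.0784). It passed with a stricter gate (−0.47, adjusted p = 0.0325) and with no filter on low counts (−0.32, adjusted p = 0.046), and was −0.40 without Control 2. DESeq2 did not call it (−0.35, adjusted p = 0.283). Nor did edgeR with RLE size factors, Leiden clusters, doublets kept or at most 10% mitochondrial UMIs. S1pr1 also missed with equal cells of each subtype and without inflamed venous cells. The direction was the same in each subtype: −0.46 ± 0.19 in arterial, −0.35 ± 0.14 in capillary and −0.41 ± 0.15 in venous cells (log2, SE), and none of these passed in edgeR (adjusted p = 0.290, 0.390 and 0.427). In inflamed venous cells of the Diabetic libraries S1pr1 had 515 and 583 CPM.

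Plpp1 averaged 70.1 ± 3.18 CPM in Diabetic and 49.9 ± 6.47 CPM in Control endothelial cells (SD, n = 2 each), with no overlap, and its log2 fold change of 0.51 ± 0.15 (SE) missed the threshold (edgeR adjusted p = 0.0941). It passed with classes from Leiden clusters (0.56, adjusted p = 0.0392), with no filter on low counts (0.54, adjusted p = 0.0425) and without Control 2 (0.64, adjusted p = 0.0119). It was 0.35 without Control 1 (adjusted p = 0.418), and DESeq2 did not call it (0.49, adjusted p = 0.793). By subtype Plpp1 had 47.3 and 65.4 CPM in Diabetic and 26.5 and 16.7 CPM in Control venous cells, a log2 difference of 1.27 ± 0.43 (SE, edgeR adjusted p = 0.372). In arterial cells it had 57.6 and 56.7 CPM in Diabetic and 55.4 and 94.2 CPM in Control libraries. Capillary cells had 64.7 and 57.0 CPM in Diabetic and 35.6 and 50.3 CPM in Control libraries (log2 0.53 ± 0.24, SE, edgeR adjusted p = 0.502). Inflamed venous cells of the Diabetic libraries had 92.8 and 68.8 CPM. With inflamed venous cells left out of the endothelial sums, edgeR did not call Plpp1. The venous and capillary values were apart and the arterial values overlapped, and the difference between the subtypes was not tested.

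The other members gave no call. Sgpl1 averaged 14.1 ± 1.05 CPM in Diabetic and 8.62 ± 1.09 CPM in Control endothelial cells (log2 fold change 0.72 ± 0.33, edgeR adjusted p = 0.294). Spns2 averaged 39.0 ± 5.68 CPM in Diabetic and 29.7 ± 4.44 CPM in Control endothelial cells (log2 fold change 0.40 ± 0.21, adjusted p = 0.366). The groups did not overlap for either gene. Spns2 had 43.9 and 64.3 CPM in the inflamed venous cells of Diabetic libraries and 28.4 and 30.6 CPM in Diabetic capillary cells, beside 28.0 and 28.0 CPM in Control capillary cells. Sphk2 (−0.30 ± 0.31), Sgpp1 (−0.09 ± 0.24), Plpp3 (−0.14 ± 0.19) and S1pr3 (−0.06 ± 0.38) had log2 fold changes near or within their SE. The median log2 fold change was −0.09 over the 9 tested members and −0.01 over all tested genes.

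**Figure D2:**
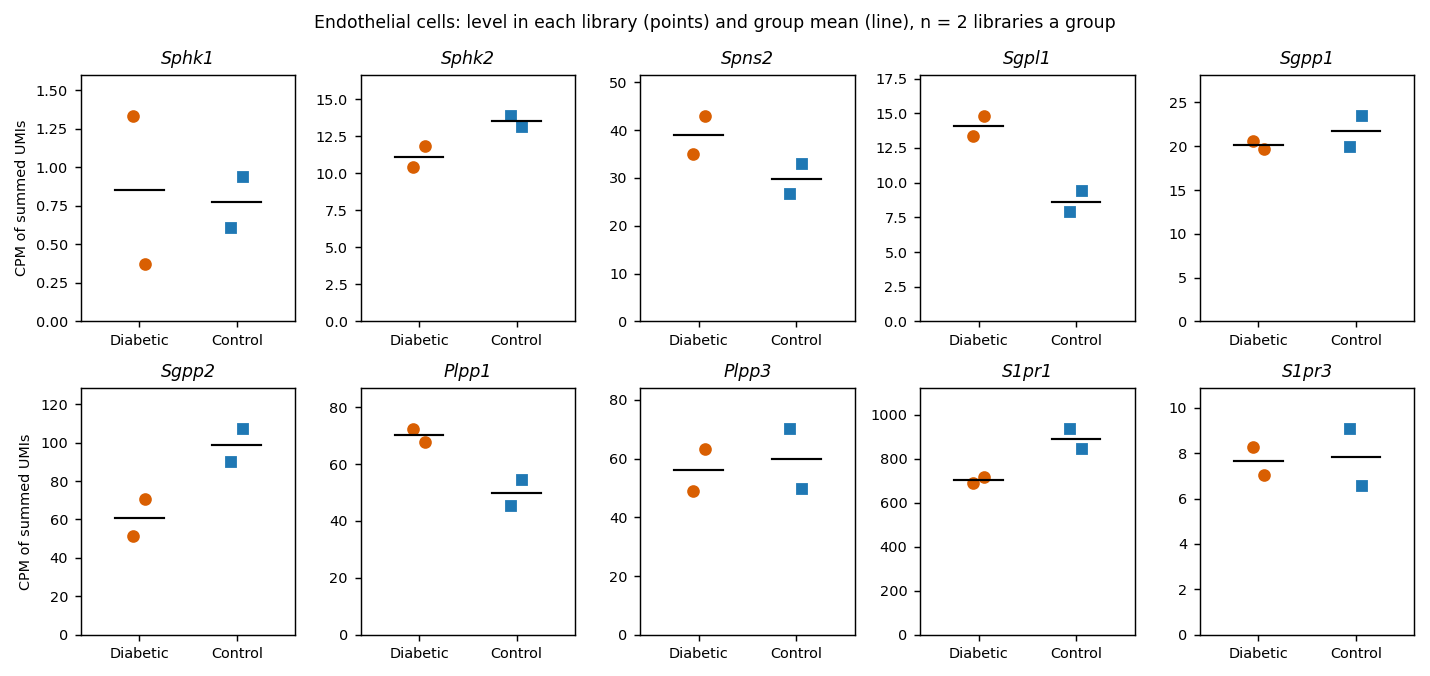
Level in endothelial cells of each library in CPM, with Diabetic libraries (circles) left of Control libraries (squares) and the group mean as a line; axes start at 0 and differ between genes. Sgpp2 lies at 51.2 and 70.4 CPM in Diabetic and 90.1 and 107.1 CPM in Control libraries, and S1pr1 at 687 and 715 CPM in Diabetic and 934 and 842 CPM in Control libraries.

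Markers of other cells also differed in the endothelial sums. The 5 neutrophil markers summed to 34.2 to 37.1 CPM in Diabetic and 0 CPM in Control endothelial cells, and the 4 fibroblast markers to 24.0 to 63.4 CPM in Diabetic and 0.604 to 3.76 CPM in Control endothelial cells. Rod markers overlapped, at 2547 to 3976 CPM in Diabetic and 3092 to 4837 CPM in Control endothelial cells. Mitochondrial UMIs took a median of 2.81% and 3.54% per Diabetic and 5.84% and 5.26% per Control endothelial cell. The part of these differences in the results was not tested.

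**Figure D3:**
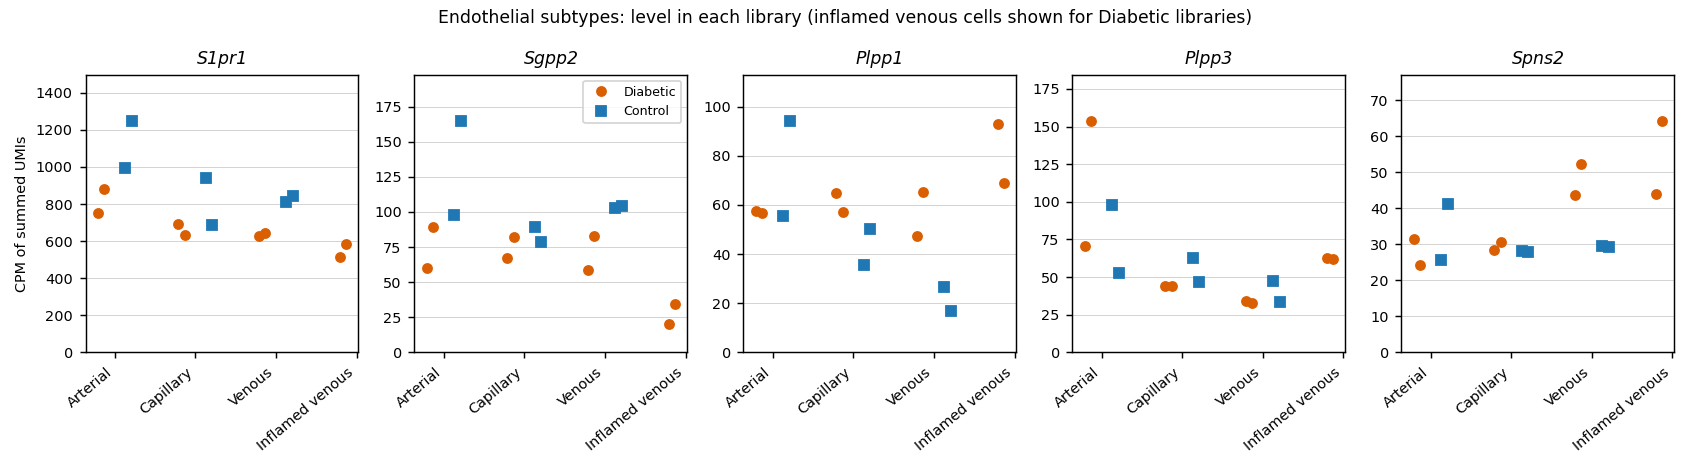
Levels of 5 genes in CPM in arterial, capillary, venous and inflamed venous endothelial cells, 1 point a library, Diabetic (circles) left of Control (squares); inflamed venous cells are drawn for Diabetic libraries only. Inflamed venous cells hold the lowest Sgpp2 values, 20.2 and 34.4 CPM, and among the highest Spns2 values, 43.9 and 64.3 CPM.

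By subtype, no member was called in edgeR. Of the members tested, 0 of 4 were called in arterial cells (1.52% of all tested genes), 0 of 8 in capillary cells (0.581%) and 0 of 5 in venous cells (0.431%). At an unadjusted p under 0.05 there were 2 members in arterial, 2 in capillary and 3 in venous cells. Among all tested genes, 560 of 4659 in arterial, 868 of 9119 in capillary and 502 of 6496 in venous cells were under that level. Sgpp2 gave −0.82 ± 0.33 in arterial, −0.24 ± 0.19 in capillary and −0.60 ± 0.28 in venous cells (log2 fold change, SE, edgeR adjusted p = 0.292, 0.744 and 0.636). The marker genes by which arterial cells were chosen differed unequally between the groups in those cells. Hey1 had 188 and 158 CPM in Diabetic and 302 and 277 CPM in Control libraries, while Mgp stood at 2761 and 2506 CPM in Diabetic and 1192 and 854 CPM in Control libraries. Gkn3 overlapped, at 55.0 and 206 CPM in Diabetic and 196 and 459 CPM in Control libraries. The part of these markers in which cells were taken as arterial, and so in the arterial values, was not tested. These marker genes were named after their values were seen.

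In Müller glia the Diabetic values of S1pr1, 136 and 184 CPM, lay below the Control values, 285 and 237 CPM. The log2 fold change was −0.67 ± 0.21 (SE) and missed the threshold (edgeR adjusted p = 0.150). With classes from Leiden clusters it was −0.97 and passed (adjusted p = 0.00861). S1pr3 stood at −0.39 ± 0.22 (adjusted p = 0.525) and at −0.65 from Leiden clusters (adjusted p = 0.0359). Plpp3 (−0.14 ± 0.20) and Sphk1 (−0.62 ± 0.46) did not pass, and the Sphk1 value was −0.01 without Diabetic 2. Of 7 members tested in Müller glia, 0 were called by edgeR and 0 by DESeq2 (edgeR called 0.793% of all tested genes). At an unadjusted p under 0.05 in edgeR there was 1 member, beside 919 of all 8200 tested genes.

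Depth differed between the groups in Müller glia. The median was 1687 and 1451 UMIs per Diabetic cell and 4147 and 2105 UMIs per Control cell. S1pr1 was found in 21.4% and 26.8% of Diabetic and 52.2% and 39.6% of Control Müller glia. Among cells of at least 1000 UMIs, thinned to 1000, the shares were 13.2% and 15.3% in Diabetic and 21.1% and 32.4% in Control libraries. The second measure left out the cells under 1000 UMIs, and the effect of this on the groups was not tested. Both measures put the Diabetic libraries below the Control libraries. Endothelial markers summed to 1527 to 1610 CPM in Diabetic and 1593 to 1736 CPM in Control Müller glia, and Müller markers to 27044 to 27637 CPM in Diabetic and 29600 to 32330 CPM in Control Müller glia.

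In pericytes S1pr3 had a log2 fold change of −0.07 ± 0.26 (SE, edgeR adjusted p = 0.994), and the Diabetic and Control values overlapped. Plpp3 stood at 239 and 238 CPM in Diabetic and 161 and 164 CPM in Control pericytes, a log2 fold change of 0.48 ± 0.33 (edgeR adjusted p = 0.948). The groups were apart, but the values rest on 86 UMIs. Of 2394 genes tested in pericytes, 0% were called by edgeR and 0 by DESeq2, with 158 at an unadjusted p under 0.05 in edgeR, and 0 of the 2 members tested were called.

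In the remaining classes 0 of 10 members were called in rods (10.7% of all tested genes), 0 of 5 in cones (0.119%) and 0 of 1 in microglia or macrophages (1.68%), by edgeR and by DESeq2. No member could be tested in bipolar cells (0.0953% of all tested genes were called). At an unadjusted p under 0.05 in edgeR there were 0 in rods, 1 in cones and 0 in microglia. Among all tested genes, 4707 of 16316 in rods, 809 of 9224 in cones and 378 of 3027 in microglia were under that level. The rod log2 fold changes ran from −0.19 to 0.82, and Sgpp1 had −0.08 ± 0.06 (SE). The cone gene was Plpp3, with 12.2 and 16.3 CPM in Diabetic and 3.49 and 8.93 CPM in Control cones (log2 fold change 1.19 ± 0.51, edgeR adjusted p = 0.475).

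**Figure D4:**
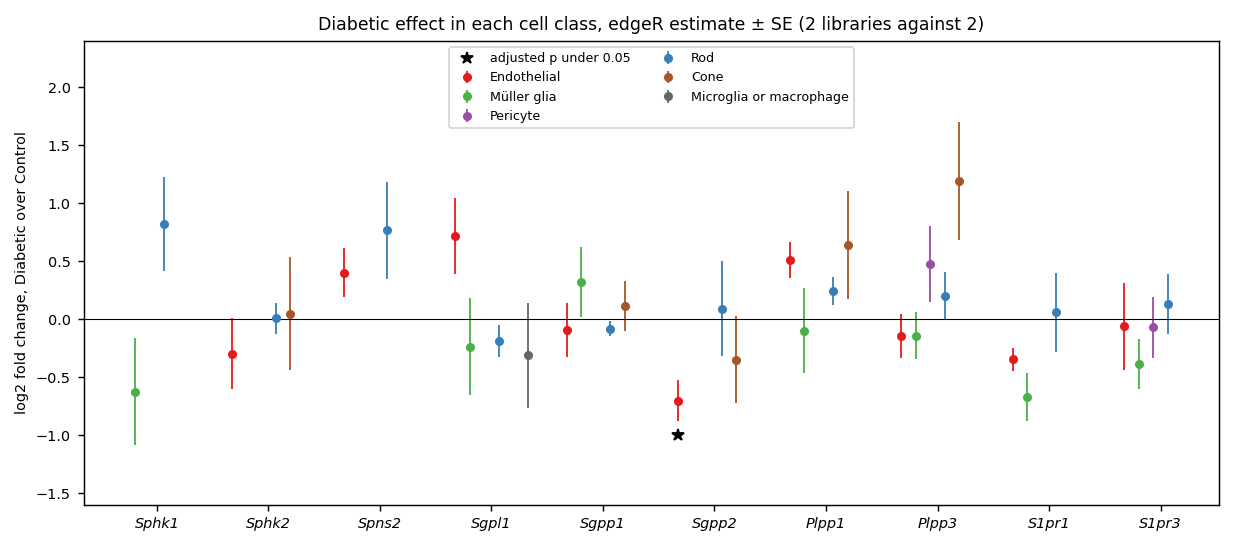
Log2 fold change of each tested gene, Diabetic over Control, with its SE as bars, in 6 cell classes (edgeR, 2 libraries against 2); values above 0 are higher in Diabetic libraries, and the star marks an adjusted p under 0.05. Sgpp2 in endothelial cells, at −0.70, carries the only star.

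Whether the Diabetic effect differed between endothelial cells and another class was tested as an interaction. Of 51 such tests of members over 6 classes, 0 were called by edgeR and 4 had an unadjusted p under 0.05. How many of all genes were under that unadjusted level was not counted. The share of all tested genes called was 0.776% for Müller glia, 0.572% for rods, 0.176% for pericytes, 0.723% for microglia or macrophages, 0.354% for cones and 0.189% for bipolar cells. The effect on S1pr1 in endothelial cells minus that in Müller glia was 0.33 ± 0.23 (log2, SE, edgeR adjusted p = 0.725), and the effect on Sgpp2 in endothelial cells minus that in rods was −0.68 ± 0.36 (adjusted p = 0.592). Without Control 1 the Sgpp2 difference was −1.78. For S1pr1 the effect in endothelial cells minus that in rods was −0.42 ± 0.29 (adjusted p = 0.693). It passed with the stricter gate (−0.88, adjusted p = 0.00978) and was −1.06 without Control 1. Rods had 4.05 CPM of S1pr1 in Control 2 and 7.34 to 10.2 CPM in the other libraries, and 1.04 beside 2.28 to 2.87 CPM of Sgpp2. The endothelial gene Cldn5 was also lowest in Control 2 rods, at 12.7 CPM beside 25.7 to 39.2 CPM. The part of endothelial RNA in these rod values was not tested.

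Other genes around S1P moved in endothelial cells. These lists were drawn up with earlier results of these data known. Of 5 tested among the other S1P genes, 2 rose and 0 fell, beside 2.56% of all tested endothelial genes called higher and 1.59% called lower. They were Abca1, a lipid exporter, and S1pr4, a receptor best known in leukocytes. Abca1 had 52.8 and 54.9 CPM in Diabetic and 13.9 and 15.97 CPM in Control endothelial cells (log2 fold change 1.86 ± 0.21, edgeR adjusted p = 2.56e-04). S1pr4 had 26.7 and 24.1 CPM in Diabetic and 9.67 and 13.1 CPM in Control endothelial cells (1.19 ± 0.27, adjusted p = 0.0254). The S1pr4 call was lost without Diabetic 1 (1.14, adjusted p = 0.0583) and without Control 1 (0.94, adjusted p = 0.165), and DESeq2 did not make it (adjusted p = 0.303).

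Of 15 tested genes for the supply of sphingosine, 2 rose and 1 fell, beside the same 2.56% called higher and 1.59% called lower among all tested genes. Acer2, an alkaline ceramidase that frees sphingosine from ceramide, had 347 and 384 CPM in Diabetic and 173 and 212 CPM in Control endothelial cells (log2 fold change 0.93 ± 0.13, edgeR adjusted p = 0.00119). Ugcg, which turns ceramide into glucosylceramide, had 41.1 and 40.8 CPM in Diabetic and 15.7 and 17.8 CPM in Control endothelial cells (1.30 ± 0.21, adjusted p = 0.00376). Sgms1, a sphingomyelin synthase, had 658 and 723 CPM in Diabetic and 877 and 1021 CPM in Control endothelial cells (−0.46 ± 0.11, adjusted p = 0.0365), and its call was lost without Diabetic 1 (−0.37, adjusted p = 0.209). The median log2 fold change over this list was 0.32, beside −0.01 over all tested genes.

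Levels were also read in inflamed venous cells. In those cells of Diabetic libraries Abca1 had 138 and 165 CPM, Acer2 624 and 613 CPM and Ugcg 129.9 and 140.0 CPM, while Diabetic capillary cells had 16.4 and 5.28 CPM of Abca1, 191 and 232 CPM of Acer2 and 23.5 and 25.3 CPM of Ugcg. Without inflamed venous cells the log2 fold changes were 1.24 for Abca1 (edgeR adjusted p = 0.00792), 0.71 for Acer2 (adjusted p = 0.0062) and 0.46 for Ugcg (adjusted p = 0.452). S1pr4 did not share this pattern, at 23.6 and 22.9 CPM in those cells and 31.3 and 16.9 CPM in Diabetic capillary cells, and without them it was 1.201 (adjusted p = 0.0307). Control capillary cells had 11.9 and 5.59 CPM of Abca1, which overlapped the Diabetic values, and 162 and 155 CPM of Acer2, which lay below them. In arterial cells Acer2 overlapped, at 298 and 170 CPM in Diabetic and 226 and 318 CPM in Control libraries. Diabetic values lay above Control values for Abca1 in arterial and venous cells and for Acer2 in venous cells.

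Of 19 tested genes for receptor coupling, among them the G protein subunits Gnai2 and Gna13 and the effector Rac1, 0 were called by edgeR and 0 by DESeq2. Of all 11184 tested endothelial genes, edgeR called 464 (4.15%) and DESeq2 227. At an unadjusted p under 0.05 in edgeR were 2 of the 19 genes, beside 1906 of all 11184. Nos3, which makes nitric oxide downstream of S1PR1, had 165 and 153 CPM in Diabetic and 184 and 191 CPM in Control endothelial cells (log2 fold change −0.23 ± 0.11, edgeR adjusted p = 0.285). Nos3 and Klf2 were named after their values were seen. Of 10 tested genes for the transcription and trafficking of S1PR1, 1 rose, beside 2.56% of all tested genes called higher. Stat3, a transcription factor of cytokine signalling, had 159 and 165 CPM in Diabetic and 103 and 115 CPM in Control endothelial cells (0.58 ± 0.12, adjusted p = 0.0141), and the call was lost without Diabetic 2 (0.54, adjusted p = 0.0727) or Control 1 (0.48, adjusted p = 0.0503) and without inflamed venous cells (0.44, adjusted p = 0.0685). Klf2, a shear-responsive factor known to drive S1pr1 in T cells, had 3273 and 3445 CPM in Diabetic and 2426 and 2980 CPM in Control endothelial cells (0.31 ± 0.11, adjusted p = 0.166).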

How the data were processed

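The authors deposited UMI counts per gene and cell barcode for 2 Diabetic and 2 Control libraries. Cell Ranger 7.0.0, STAR 2.7.10b and the mm10 build are named in the submitters' processing notes, which give no order or settings. From these counts, barcodes were kept from 500 UMIs and 300 genes upward, up to a mitochondrial share of 20%, and doublets were removed at 0.8% per 1000 cells by Scrublet score, since its automatic call marked 0% to 0.613% of cells.

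Classes were set by marker UMIs per 10000 UMIs. These limits were set after seeing the data, and Apoe, abundant in microglia too, was left out of the Müller score. UMIs were summed per class and library. A class needed 20 cells in each library to be tested, with edgeR 4.0.16 (TMM, genes filtered by expression, quasi-likelihood test, R 4.3.3), and p-values were Benjamini-Hochberg adjusted over all genes tested at 0.05. Differences between classes were fitted with the library as a block. DESeq2 1.42.0, Leiden clusters (scanpy 1.11.5), other filters and leaving out each library were alternatives. Shares of cells and the limit from 3 counts cover counting error only. In simulated endothelial data with 11167 genes, 75 of 95 genes changed 2-fold and 102 of 105 changed 4-fold were recovered, with 5 false calls. The simulation gave every gene the same dispersion and changed only genes with higher counts. Recovery of changes under 2-fold was not measured.

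The members and the pathway lists were chosen with earlier results of these data known. All members are named, with the called genes of each list and the 3 genes most like S1pr1, S1pr3 and Spns2.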

Additional observations from a re-analysis of the deposited data

How the results depend on the processing

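In endothelial cells 464 genes were called, against 227 with DESeq2, 832 with no filter on low counts, 1167 with the replicate block, 25 with equal cells of each subtype, 260 without inflamed venous cells (added after seeing the data) and 345 to 899 without single libraries. The members called numbered 1, against 0 with DESeq2, 3 with no filter, 3 with the replicate block, 0 with equal cells, 0 without inflamed venous cells and 0 to 3 without single libraries. The other S1P genes called numbered 2, against 1 with DESeq2, 1 with the stricter gate, 0 with equal cells and 1 to 2 without single libraries. The sphingosine supply genes called numbered 3, against 5 with the replicate block, 0 with equal cells and 1 without inflamed venous cells. The S1PR1 transcription and trafficking genes called numbered 1, against 0 with DESeq2, 2 with no filter, 3 with the replicate block, 0 with equal cells, 0 without inflamed venous cells and 0 to 2 without single libraries, and receptor coupling had 0 to 1. Equal cells left 24 arterial, 104 capillary and 41 venous cells a library. In other classes, Leiden clusters gave 2 members in Müller glia (main 0), 1 in microglia and 1 in bipolar cells (0 each). Capillary cells gave 1 with the replicate block and 0 to 1 without single libraries, and rods 0 to 1. Of 7 members apart in pericytes and endothelial cells, the stricter gate kept a count of 3. Arterial against capillary cells had 2, with 0 under the stricter gate and 0 to 2 without single libraries, and arterial against venous cells 2, with 1 and 0 to 1. For the effect in endothelial cells minus rods, 0 members were called, against 1 with the stricter gate and 0 to 2 without single libraries.

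Some values changed sign. Without single libraries, endothelial Plpp3 ran from −0.33 to 0.14, S1pr3 from −0.22 to 0.21 and Sgpp1 from −0.24 to 0.023, pericyte S1pr3 from −0.15 to 0.036 and Müller Plpp3 from −0.41 to 0.087. S1pr3 was 0.44 in endothelial and 0.015 in pericyte Leiden clusters, and 0.085 in endothelial cells without inflamed venous cells. None of these log2 fold changes was called under any of these settings. The effect on Plpp1 in endothelial cells minus Müller glia was 0.57 and −0.20 with the stricter gate, and that on S1pr1 in endothelial cells minus rods was −0.42 and ran from −1.06 (called, edgeR adjusted p = 0.0474) to 0.016 without single libraries. The cause was not tested in any of these cases.

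Whether the replicate numbers mark a pairing was not settled, since there are only 2 pairs. The deviations of Diabetic 1 and Control 1 from their group means correlated at 0.166 over 11184 genes. With the replicate block edgeR called 1167 genes in endothelial cells (464 without it) and 4109 in rods (1752 without it). In Müller glia it called 64 (65 without it). With the replicate block S1pr1 (−0.35, edgeR adjusted p = 5.56e-04) and Plpp1 (0.51, adjusted p = 0.0125) were called in endothelial cells. Depth limited most members in pericytes, microglia and bipolar cells, where few UMIs were counted.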
